A study of Mus musculus with 8 samples.

Results

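The genes described here were 9 chemokines that draw monocytes, macrophages, neutrophils and other leukocytes into tissue, namely Ccl2, Ccl7, Ccl3, Ccl4, Cxcl1, Cxcl2, Cx3cl1, Cxcl12 and Cxcl16. They were chosen by name, and all 9 were found among the 20408 genes of the expression tables. Their levels were read in tumour endothelial cells (ECs) that carried at least 1 UMI (a counted molecule) of Pecam1, the gene of the sort marker CD31, which left 7159 of 8204 cells. The cells came from 8 single-cell libraries of CD31+ tumour ECs, 2 in each of 4 groups. In the spontaneous model, breast tumours arose in adult female mice that carry the polyoma middle T oncogene under the MMTV promoter (MMTV-PyMT), which is active mainly in mammary epithelium, so the transgene was not targeted to ECs. In the implanted model, cells cultured from nodules of MMTV-PyMT breast tumours were injected into the mammary fat pad, so these tumours grew from transplanted cultured cells. Tumours of both models were injected intratumourally (i.t.) with PBS or with cGAMP, the second messenger that activates the innate immune sensor STING, and were taken 3 h later. All groups share 1 strain entry in the labels, c57bl/6, but the methods name FVB mice, and which is right could not be settled.

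Chemokines are small secreted proteins that bind heparan sulphate on the vessel wall and signal through receptors on leukocytes. Ccl2 and Ccl7 recruit monocytes through the receptor Ccr2, Ccl3 and Ccl4 attract monocytes, macrophages and T cells, and Cxcl1 and Cxcl2 recruit neutrophils through Cxcr2. Cx3cl1 (fractalkine) and Cxcl16 are made as membrane-bound proteins that can hold leukocytes on the endothelium and are released by the metalloprotease Adam10, and their receptors are Cx3cr1 and Cxcr6. Cxcl12 binds Cxcr4 and is made in the steady state by arterial ECs and stroma. Transcription of many inflammatory chemokines depends on NF-κB, and STING signalling activates both interferon regulatory factors and NF-κB.

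On GRCm38 the chemokine genes lie in part next to each other. Ccl2 (chr11:82035571-82037453, plus strand) and Ccl7 (chr11:82045712-82047525, plus strand) are 8258 bases apart. Ccl3 (chr11:83647844-83649355, minus strand) and Ccl4 (chr11:83662584-83664683, plus strand) are 13228 bases apart. Cxcl1 (chr5:90891241-90893115, plus strand) and Cxcl2 (chr5:90903871-90905938, plus strand) are 10755 bases apart. Cx3cl1 is at chr8:94772009-94782427 and Cxcl12 at chr6:117168535-117181367, both on the plus strand, and Cxcl16 is at chr11:70453983-70459984 on the minus strand. All are annotated as protein-coding. RefSeq promoter windows of 300 bases, of which 250 lie before the start of the gene, were held for 5 of the 9 (GRCm38.p6). Bases −100 to −31 of Cxcl1 (chr5:90891145-90891214, plus strand) and of Cxcl2 (chr5:90903799-90903868, plus strand) are printed because both hold the κB-type letters GGAATTTCC, marked in capitals. Both strands were searched, and these letters were chosen after a longer form of them had been found in both windows.
Cxcl1: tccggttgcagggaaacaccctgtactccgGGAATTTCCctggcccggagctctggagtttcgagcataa
Cxcl2: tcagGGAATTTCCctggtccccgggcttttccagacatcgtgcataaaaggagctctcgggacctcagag
Positions are counted from the RefSeq start of each window, which differs from the gene start given above. In Cxcl1 the match ran from −70 to −62, and in Cxcl2 from −96 to −88. These letters were found in 104 of 32851 windows (0.317%). The letters GAAANNGAA, of the kind bound by interferon regulatory factors, were in 8.56% of windows and, among the members' 5, only in Ccl3 on the minus strand of the window, and TATAAA was in 13.6% and only in Cx3cl1. A match is a description of the letters and not evidence of a factor bound there.

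The libraries held 601 to 1529 Pecam1-positive cells and 7451522 to 16338968 UMIs in them. Pecam1-positive cells of implanted cGAMP replicate 1 were shallow, with a median of 3049 UMIs, against 9523 to 14707.5 elsewhere. In that library only 75.5% of deposited cells had a Pecam1 UMI, against 88.7% to 92.8% elsewhere, and its summed level of epithelial markers was 2243 CPM (UMIs scaled to the same total in every cell and averaged over cells) against 387 to 990. Summed pan-endothelial markers were even, at 6466 to 7575 CPM. Cells with a UMI of a core immune gene (Ptprc, Tyrobp, Fcer1g or Laptm5) made up 3.28% to 5.2% of the PBS libraries, 9.40% and 9.81% of spontaneous cGAMP, and 19.0% and 17.2% of implanted cGAMP. Of the 15 immune markers, 0 to 3 were at 0 in a library, and their summed level was 69.6 and 58.0 CPM in spontaneous tumours given PBS, 102 and 90.5 in those given cGAMP, 112 and 114 in implanted tumours given PBS and 478 and 152 in those given cGAMP. In the same order, Cd14 alone gave 43.6 and 33.7, 40.3 and 40.5, 72.7 and 91.7, and 134 and 49.1 CPM of these sums. Cd14 was also a leading gene of the venous-like cluster 2 described below, so the sums do not measure immune cells alone. A total of 7 cell barcodes occurred in more than 1 library.

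To ask which of these chemokines changed within 3 h of cGAMP, mean CPM over Pecam1-positive cells was compared between libraries. Ccl2 rose in both models. Cx3cl1, which holds leukocytes on the vessel wall, also rose in both. In implanted tumours Ccl7, Ccl4, Cxcl2 and Cxcl16 rose as well, and Cxcl12 fell. Of the 9 genes, 8 passed the filter of at least 5 CPM in at least 2 libraries and Ccl3 did not. Of these 8, 2 were called in spontaneous tumours, both higher, against 12.7% of 10424 genes tested (5.09% higher), and 7 in implanted tumours, against 25% of genes (6 higher, background 8.6%, and 1 lower, background 16.4%), with limma and a Benjamini-Hochberg adjusted p under 0.05. No difference between the responses of the models was called for any of the 8, against a background of 0.662%, and only Ccl2 had an unadjusted p under 0.05 (0.0439). Over all genes 1400 had an unadjusted p under 0.05 for this difference and 69 were called.

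Ccl2, the main attractant of Ccr2+ monocytes, was at 7.996 and 12.6 CPM in the spontaneous PBS libraries and at 166 and 71.4 CPM after cGAMP. In implanted tumours it was at 11.3 and 10.8 CPM after PBS and at 391 and 209 CPM after cGAMP. The groups did not overlap in either model, and the mean of the libraries was 11.6-fold higher in spontaneous and 27.2-fold higher in implanted tumours. The log2 change was 3.32 ± 0.38 (SE, adjusted p = 4.70e-04) in spontaneous and 4.58 ± 0.38 (adjusted p = 5.69e-05) in implanted tumours. The gene was called in all 22 alternatives in both models. The replicates of spontaneous cGAMP lay apart, and leaving out replicate 1 lowered the log2 change to 2.71 (adjusted p = 0.00443) while leaving out replicate 2 raised it to 3.92 (adjusted p = 5.83e-04). The share of cells with a Ccl2 UMI was 2.49% and 2.66% after PBS and 11.5% and 11.7% after cGAMP in spontaneous tumours, and 5.2% and 4.28% against 24.7% and 24.01% in implanted tumours. The groups kept this order with every cell thinned to 2000 UMIs, where the shares were 1.04% and 0.903% against 5.71% and 3.43%, and 1.65% and 1.85% against 15.2% and 9.73%. Thinning left out 580 cells of implanted cGAMP replicate 1 and 22 to 102 cells of each other library. A small number of cells carried most of the Ccl2 molecules: the 10 richest cells held 85.0% and 95.04% of its UMIs in the spontaneous PBS libraries, 72.9% and 79.0% in spontaneous cGAMP, 67.6% and 58.9% in the implanted libraries given PBS, and 58.3% and 71.7% in those given cGAMP. These shares depend on how many cells had a Ccl2 UMI. Such cells numbered 24 and 16, 77 and 81, 52 and 47, and 378 and 145, in the same order.

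Ccl7, encoded beside Ccl2 and acting on the same receptor, was at 0.0513 and 1.70 CPM in spontaneous PBS and at 6.37 and 6.59 CPM in spontaneous cGAMP. It was at 6.51 and 1.19 CPM in implanted PBS and at 48.8 and 9.89 CPM in implanted cGAMP. The groups were apart in both models, but within each model the replicates of at least 1 group differed several-fold. The log2 change was 2.15 ± 0.76 (adjusted p = 0.0952) in spontaneous tumours, which was not called, and 2.52 ± 0.76 (adjusted p = 0.0374) in implanted tumours. The implanted call rested on single libraries: the log2 change was 1.42 (adjusted p = 0.198) without implanted cGAMP replicate 1 and 1.63 (adjusted p = 0.249) without implanted PBS replicate 2, and it was 3.62 and 3.41 without the other replicate of each group. It was lost in 12 of 22 alternatives. Most cells with a Ccl7 UMI after cGAMP also carried Ccl2, namely 21 of 31 in spontaneous and 104 of 163 in implanted tumours (63.8%).

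**Figure D1:**
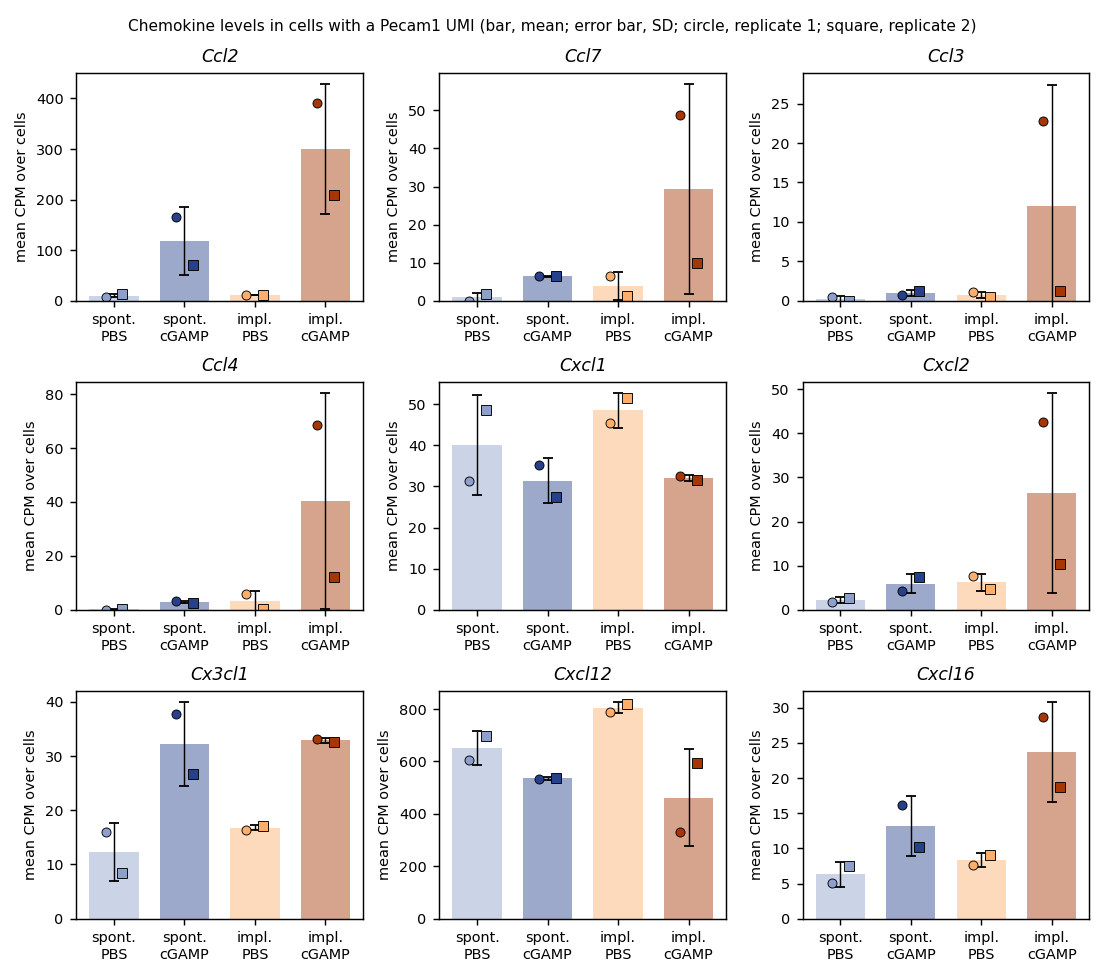
Mean CPM over Pecam1-positive cells for each of the 9 chemokines, 1 panel per gene, with the 4 groups (model and treatment) on the horizontal axis. Bars are means of 2 libraries, error bars are SD, circles are replicate 1 and squares replicate 2. Ccl2 was at 7.996 to 12.6 CPM in the 4 PBS libraries and at 71.4 to 391 CPM in the 4 cGAMP libraries, while Cxcl1 stayed between 27.5 and 51.5 CPM.

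Ccl3 and Ccl4, which are made in quantity by activated myeloid cells, were rare. Ccl3 was at 0.473 and 0 CPM in spontaneous tumours given PBS, 0.683 and 1.26 in those given cGAMP, 1.05 and 0.436 in implanted tumours given PBS and 22.8 and 1.20 in those given cGAMP. Of the 116 Ccl3 UMIs in implanted cGAMP replicate 1, 89 lay in 1 cell, and the other 7 libraries were at 0 to 1.26 CPM. Without the filter its log2 change was 0.69 (adjusted p = 0.781) in spontaneous and 2.08 (adjusted p = 0.241) in implanted tumours. In spontaneous PBS replicate 2 no Ccl3 UMI was found in 601 cells, which allows a share of cells with a UMI of up to 0.635% (Wilson interval) and sets no limit on cells that express the gene.

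Ccl4 was at 0 and 0.271 CPM in spontaneous tumours given PBS, 3.18 and 2.54 in those given cGAMP, 5.93 and 0.205 in implanted tumours given PBS and 68.7 and 11.995 in those given cGAMP. In spontaneous tumours the log2 change of 1.77 ± 0.86 was not called (adjusted p = 0.205), and since the PBS libraries held 1 UMI in all it depends on the pseudocount. In implanted tumours it rose, with a log2 change of 3.38 ± 0.86 (adjusted p = 0.0187). This call was lost without implanted cGAMP replicate 1 (2.17, adjusted p = 0.108) and without implanted PBS replicate 2 (2.12, adjusted p = 0.137), and the change was 4.59 and 4.64 without the other replicate of each group. As for Ccl2, few cells carried most of the Ccl4 molecules. A single cell held 41 of the 59 UMIs of implanted PBS replicate 1, and single cells held 37 of 43 and 65 of 76 UMIs in the spontaneous cGAMP libraries. In implanted cGAMP, 77.7% and 68.2% of Ccl4 UMIs, and 92.2% and 78.3% of Ccl3 UMIs, lay in cells that also carried a core immune UMI. For Ccl2 these shares were 14.7% and 28.0%. This contrast depended on the markers: cells with a UMI of any of the 15 immune markers, which include Cd14 and made up 53.8% and 56.6% of implanted cGAMP, held 90.7% and 81.5% of Ccl2 UMIs and 92.2% and 84.1% of Ccl4 UMIs. Cd14, also a leading gene of a venous-like cluster, was in 25.0% and 21.4% of cells there, so cells with any such marker need not be immune. In implanted PBS such cells held 28.0% and 26.7% of Ccl2 UMIs. Without them the log2 change of Ccl2 was 2.98 (adjusted p = 0.00351) in spontaneous and 4.05 (adjusted p = 2.99e-04) in implanted tumours. Without cells with a core immune UMI, Ccl4 was at 20.03 and 9.37 CPM and Ccl3 at 4.59 and 0.326 CPM in implanted cGAMP, and Ccl2 at 384 and 206 CPM. The level of Ccl2 was thus nearly the same without cells with a core immune UMI, that of Ccl4 in replicate 1 was not, and whether the carriers were ECs, other cells or pairs of cells was not tested.

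Cxcl1, a neutrophil attractant, was at 31.4 and 48.7 CPM in spontaneous PBS and at 35.3 and 27.5 CPM in spontaneous cGAMP, and these groups overlapped. It was at 45.5 and 51.5 CPM in implanted PBS and at 32.5 and 31.6 CPM in implanted cGAMP, which did not overlap. The log2 change was −0.32 ± 0.19 (adjusted p = 0.303) in spontaneous and −0.58 ± 0.19 (adjusted p = 0.0544) in implanted tumours, so neither was called. Within the EC-like clusters described below the implanted value was −0.76 (adjusted p = 0.0148), which was past the threshold. Cells with a Cxcl1 UMI made up 13.7% to 19.0% of all 8 libraries.

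Cxcl2, encoded next to Cxcl1 and binding the same receptor, was at 1.65 and 2.61 CPM in spontaneous tumours given PBS, 4.35 and 7.53 in those given cGAMP, 7.59 and 4.78 in implanted tumours given PBS and 42.5 and 10.4 in those given cGAMP. The groups did not overlap in either model. The log2 change was 1.13 ± 0.54 (adjusted p = 0.198) in spontaneous and 1.66 ± 0.54 (adjusted p = 0.0498) in implanted tumours. The implanted call stood at the threshold, was kept in 4 of 22 alternatives and was 0.69 (adjusted p = 0.261) without implanted cGAMP replicate 1, where 1 cell held 212 UMIs, and 2.63 without replicate 2. In that group 71.6% and 44.97% of Cxcl2 UMIs lay in cells with a core immune UMI, and without such cells the log2 change was 1.09 (adjusted p = 0.150). Of the cells with a Cxcl2 UMI, 26 of 41 in implanted PBS also carried Cxcl1 (63.4%), against 51 of 135 in implanted cGAMP (37.8%).

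**Figure D2:**
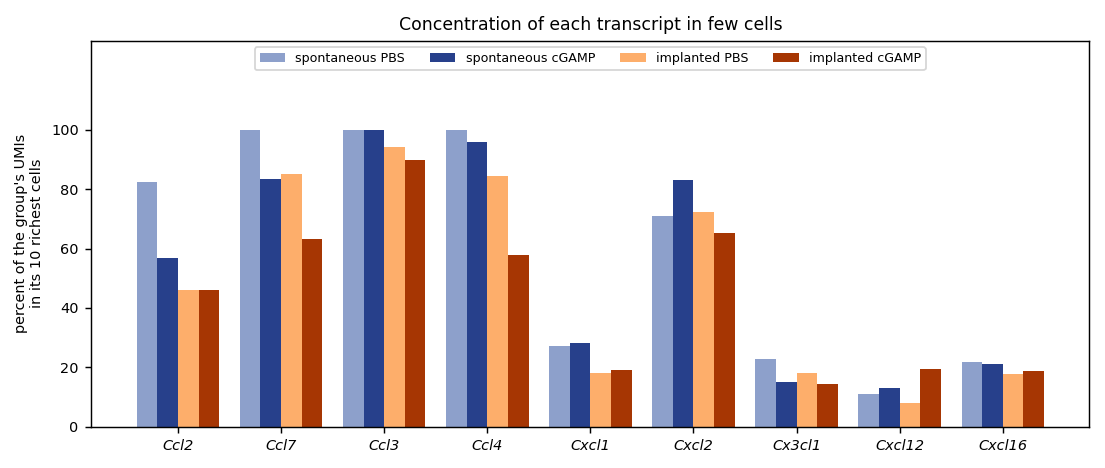
Percent of all UMIs of a chemokine in a group that lay in the 10 cells with most UMIs of it, with 1 set of bars per gene and 1 bar per group. With both libraries of implanted cGAMP joined, the 10 richest cells held 46.0% of Ccl2, 57.8% of Ccl4 and 89.9% of Ccl3 UMIs, against 14.5% of Cx3cl1 and 19.4% of Cxcl12 UMIs. For Ccl2 they held 82.5% in spontaneous PBS and 56.8% in spontaneous cGAMP, and fewer than 10 cells held all Ccl3 UMIs of both spontaneous groups. The shares depend on the number of cells with a UMI, which in implanted cGAMP was 24 for Ccl3 and 880 for Cxcl12.

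The membrane-bound chemokines were spread over many cells. Cx3cl1 was at 16.0 and 8.47 CPM in spontaneous PBS and at 37.7 and 26.7 CPM in spontaneous cGAMP, and at 16.4 and 17.2 CPM in implanted PBS and 33.2 and 32.6 CPM in implanted cGAMP. The levels after cGAMP were alike in both models, and groups within a model did not overlap. The log2 change was 1.37 ± 0.25 (adjusted p = 0.00778) in spontaneous and 0.93 ± 0.25 (adjusted p = 0.0240) in implanted tumours. The spontaneous call was lost without spontaneous cGAMP replicate 1 (adjusted p = 0.0862). The implanted call was lost without any single implanted library, with adjusted p from 0.0585 to 0.103, and with cells thinned to 2000 UMIs (adjusted p = 0.122). The share of cells with a Cx3cl1 UMI was 11.4% and 8.82% against 24.3% and 21.5% in spontaneous tumours, and 13.2% and 13.1% against 14.7% and 25.2% in implanted tumours, where the first cGAMP value belongs to the shallow library. At 2000 UMIs per cell these shares were 2.90% and 1.62% against 6.64% and 5.93%, and 3.18% and 3.603% against 6.01% and 5.49%, so that the implanted groups were also apart.

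Cxcl16 was at 5.07 and 7.54 CPM in spontaneous PBS and at 16.2 and 10.2 CPM in spontaneous cGAMP, with a log2 change of 0.95 ± 0.28 that narrowly missed the threshold (adjusted p = 0.0539). It was at 7.69 and 9.06 CPM in implanted PBS and at 28.7 and 18.7 CPM in implanted cGAMP, where it rose by a log2 change of 1.37 ± 0.28 (adjusted p = 0.00630). The implanted call was kept in 21 of 22 alternatives and lost with thinned cells (adjusted p = 0.136), and the spontaneous change was past the threshold in 8 of 22. Adam10, the protease that releases both proteins, had log2 changes of −0.27 (adjusted p = 0.0839) and −0.23 (adjusted p = 0.0896).

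Cxcl12, the ligand of Cxcr4, was at 606 and 698 CPM in spontaneous PBS and at 532 and 538 CPM in spontaneous cGAMP, with a log2 change of −0.28 ± 0.21 that was not called (adjusted p = 0.410). It was at 791 and 821 CPM in implanted PBS and at 331 and 593 CPM in implanted cGAMP, so that both treated libraries lay below both controls. There it fell, with a log2 change of −0.86 ± 0.21 (adjusted p = 0.0148). The lower treated value was that of the shallow library with the high epithelial markers. Without that library and without cells with a core immune UMI, the change was −0.42 and still called (adjusted p = 0.0167). The call was lost without replicate 1 (adjusted p = 0.0584) or replicate 2 (adjusted p = 0.0834) of implanted PBS. Between 50.4% and 58.7% of cells had a Cxcl12 UMI in 7 libraries, and 35.4% did in the shallow one. At 2000 UMIs per cell the shares in implanted tumours were 36.7% and 39.2% after PBS and 27.5% and 33.8% after cGAMP.

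**Figure D3:**
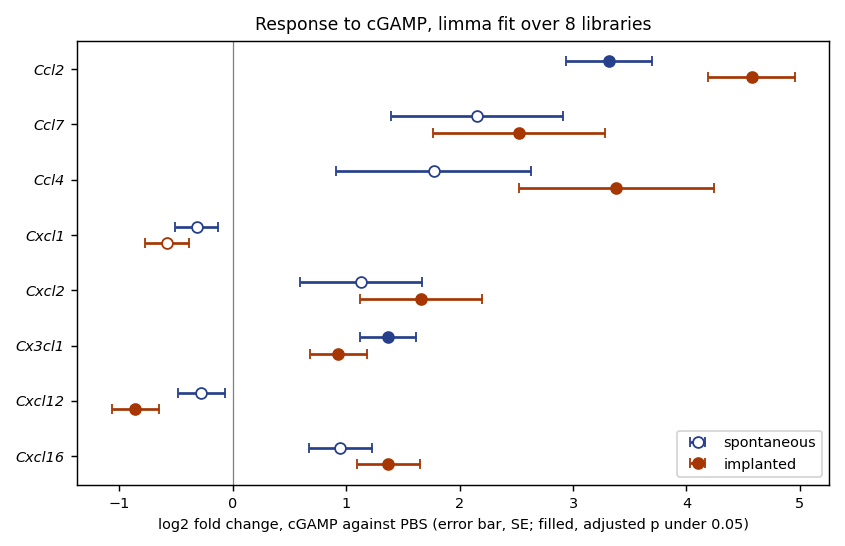
Log2 change of cGAMP against PBS (horizontal axis, on the log2(CPM + 1) scale) for the 8 chemokines tested, in spontaneous and implanted tumours. Points are estimates over 2 libraries against 2, bars are SE, and filled points had an adjusted p under 0.05. Ccl2 had the highest changes, 3.32 and 4.58, and Cxcl12 was the only one called lower, at −0.86 in implanted tumours.

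To see which vessels carried each chemokine, cells were clustered without these genes and without genes changed at least 2-fold by cGAMP, and clusters were named from fixed markers. The 5619 Pecam1-positive cells of EC-like clusters fell into 12 clusters. They were 2 arterial-like clusters (cluster 0 led by Npr3 and Dkk2, and cluster 4 led by Gkn3 and Alpl), 2 immature capillary-like clusters (cluster 1 led by Ptn and Ramp3, and cluster 3 led by Pgf and Trp53i11, which also carried the tip cell markers), 2 venous-like clusters (cluster 2 with Ackr1, and cluster 8 led by Tmem108 and Ncam1), 1 each of mature capillary-like, lymphatic-like, proliferative-like and high-endothelial-like, and 2 unnamed clusters. Outside them were 158 mural-like cells, 151 epithelial-like cells and 1231 cells of a shallow cluster with epithelial markers (Csn3 and Wfdc18). The high-endothelial-like cluster was named from 3 markers, Glycam1, Enpp2 and Madcam1, and also met 5 lymphatic and 4 epithelial markers. The epithelial-like cluster also met 5 lymphatic markers, with Lyve1, Ccl21a and Pdpn among its leading genes. Of its 330 cells, with or without a Pecam1 UMI, 75.2% came from 1 library.

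Shares of UMIs by cluster, here and below, pool all 8 libraries. Pooled in this way, Ccl2 came mainly from cluster 3 of immature capillary-like cells, with 40.03% of all its UMIs, and from lymphatic-like cells, with 26.97%. Implanted cGAMP held 7917 Ccl2 UMIs against 228 to 2627 in the other groups, so these shares describe mostly that group. In spontaneous PBS, 1 of the 10 richest cells was in cluster 3 and 4 were lymphatic-like. In cluster 3 it was at 20.2 and 2.34 CPM in spontaneous tumours given PBS, 313 and 58.5 in those given cGAMP, 27.03 and 36.7 in implanted tumours given PBS and 563 and 586 in those given cGAMP. In lymphatic-like cells, where 37.6% of 306 cells had a UMI, it was at 190 and 23.9 CPM against 730 and 345 in spontaneous tumours and at 77.3 and 107 against 1456 and 326 in implanted tumours. The treated libraries thus lay above the controls in both clusters and models. By contrast, 4.34% of arterial-like cells of cluster 0 had a Ccl2 UMI at a nearly equal depth (median 13632 against 13993.5 UMIs in lymphatic-like cells). In the 60 high-endothelial-like cells, of which 28 were from implanted cGAMP, Ccl2 was at 1451 CPM in that group and at 0 to 10.3 CPM in the others. The 151 epithelial-like cells, whose cluster also met 5 lymphatic markers, had a mean of 872 CPM of Ccl2 but only 2.38% of its UMIs. Mural-like cells carried 7.15% of Ccl2 UMIs, and summed mural markers were 93.1 and 503 CPM in spontaneous tumours given PBS, 866 and 681 in those given cGAMP, 113 and 81.2 in implanted tumours given PBS and 242 and 143 in those given cGAMP. Summed fibroblast markers were 17.9 and 99.9 CPM after PBS against 149.9 and 135 CPM after cGAMP in spontaneous tumours, and 25.4 and 14.97 against 103 and 66.3 CPM in implanted tumours, and the part of these cells in the result was not tested. Over the EC-like clusters alone the log2 change of Ccl2 was 2.999 (adjusted p = 9.55e-04) and 4.25 (adjusted p = 7.50e-05).

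Ccl7 was carried chiefly by lymphatic-like cells, with 67.0% of its UMIs. There it was at 3.09 and 19.5 CPM in spontaneous tumours given PBS, 76.6 and 114 in those given cGAMP, 104 and 28.5 in implanted tumours given PBS and 280 and 55.8 in those given cGAMP, so the spontaneous groups were apart and the implanted groups overlapped. Of the 10 cells richest in Ccl7 in implanted cGAMP, 8 were lymphatic-like, while 7 of the 10 richest in Ccl2 were in cluster 3 and all 10 of those carried Cdh5, the gene of VE-cadherin. Over EC-like clusters the spontaneous change of Ccl7 was 2.40 and was called (adjusted p = 0.0266). Of the Ccl3 UMIs 51.4% lay in epithelial-like cells, by way of the 1 cell with 89. Of the Ccl4 UMIs 33.7% lay in cluster 3, 19.8% in epithelial-like cells and 11.8% in the shallow cluster.

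Cxcl1 had its largest share of UMIs among EC-like clusters, 22.5%, in cluster 2 of venous-like cells, with group means of 59.4 CPM in spontaneous tumours given PBS, 61.8 in those given cGAMP, 92.0 in implanted tumours given PBS and 66.1 in those given cGAMP. High-endothelial-like cells had a mean of 229 CPM, with a UMI in 61.7% of 60 cells. In cluster 4 of arterial-like cells the group means were 78.4 and 136 CPM after PBS and 16.2 and 27.5 CPM after cGAMP, in spontaneous and implanted tumours. Of the Cxcl2 UMIs 32.4% lay in mature capillary-like cells, nearly all from implanted cGAMP replicate 1, where this cluster stood at 525 CPM against 8.43 in replicate 2. In replicate 1 a single cell held 212 of the 422 Cxcl2 UMIs, and 71.6% lay in cells with a core immune UMI. The share of this cluster thus rests largely on 1 cell and does not describe mature capillary-like cells in general.

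Cxcl12 and Cx3cl1 were highest in share in arterial-like cells. Cluster 0 held 51.1% of Cxcl12 UMIs, and 95.4% of its cells had one. Its level there was 2038 and 2130 CPM in spontaneous tumours given PBS, 1419 and 1512 in those given cGAMP, 2382 and 2322 in implanted tumours given PBS and 874 and 1571 in those given cGAMP, so in this cluster the treated libraries lay below the controls in both models. Mature capillary-like cells held a further 12.9% of Cxcl12 UMIs. Lymphatic-like cells were at 19.99 CPM and 14.1% of them had a Cxcl12 UMI. Cx3cl1 had 23.7% of its UMIs in cluster 0 and 19.7% in cluster 4. In cluster 0 it was at 15.4 and 51.0 CPM in spontaneous tumours after PBS and cGAMP and at 15.8 and 84.4 CPM in implanted tumours. In cluster 4 it was already at 105 CPM in implanted PBS and at 62.1 CPM in implanted cGAMP. Cxcl16 was spread more evenly, with 19.3% of UMIs in cluster 3 and 15.1% in cluster 2, and its highest group mean in a venous-like cluster was 87.5 CPM, in cluster 8 of implanted cGAMP.

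**Figure D4:**
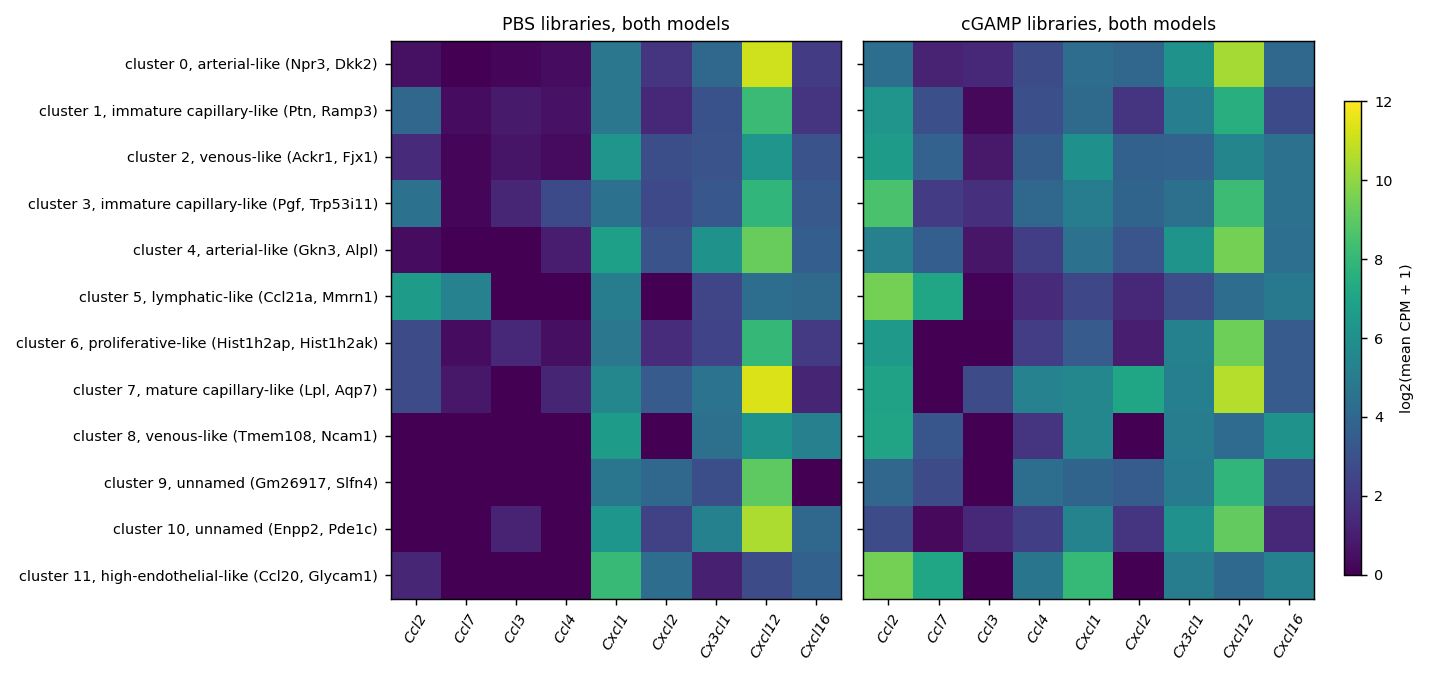
Heat map of log2(mean CPM + 1) for the 9 chemokines in the 12 EC-like clusters, with PBS and cGAMP libraries side by side and both models joined. After cGAMP, Ccl2 and Ccl7 are highest in the lymphatic-like and high-endothelial-like clusters, and Cxcl12 is highest in the arterial-like cluster 0 and in mature capillary-like cells.

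Tests within vessel classes asked whether the changes were also present among clusters of the same name. A class need not be 1 kind of cell: the immature capillary-like class joins cluster 1 with cluster 3, which met 5 immature capillary and 10 tip markers. The arterial-like, immature capillary-like, mature capillary-like and venous-like classes had at least 20 cells in every library, and lymphatic-like and high-endothelial-like cells were too few for a fit. In spontaneous tumours 5 pairs of gene and class were called, all higher. Ccl2 rose in arterial-like (4.28 ± 0.53, adjusted p = 1.28e-04, background 5.79% of genes called), immature capillary-like (2.71 ± 0.36, adjusted p = 9.41e-05, background 10.6%) and venous-like cells (3.69 ± 0.87, adjusted p = 0.0192, background 5.66%). Cx3cl1 rose in arterial-like (1.48 ± 0.30, adjusted p = 0.00803) and immature capillary-like cells (1.25 ± 0.26, adjusted p = 0.00540). In mature capillary-like cells none was called, against 1.38% of genes, and Ccl2 there had a log2 change of 2.75 (adjusted p = 0.371).

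In implanted tumours 12 pairs were called. Ccl2 rose in arterial-like (3.87 ± 0.53, adjusted p = 2.87e-04, background 11.9%), immature capillary-like (4.10 ± 0.36, adjusted p = 1.41e-06, background 25.1%) and venous-like cells (5.77 ± 0.87, adjusted p = 5.18e-04, background 11.5%). Its level differed widely between these classes. In arterial-like cells it went from 0.400 and 0.448 CPM to 25.6 and 15.3 CPM, and in immature capillary-like cells from 19.3 and 21.4 CPM to 364 and 362 CPM. Ccl7 rose in immature capillary-like (2.33 ± 0.70, adjusted p = 0.0238) and venous-like cells (4.39 ± 0.74, adjusted p = 0.00128), where it went from 0.510 and 0 CPM to 20.5 and 29.7 CPM, whereas all 4 spontaneous libraries were at 0. In venous-like cells it thus passed the filter only through the implanted cGAMP libraries, so that call describes their level and adds no support. Immature capillary-like cells also had higher Ccl4 (2.41 ± 0.78, adjusted p = 0.0338), Cx3cl1 (2.04 ± 0.26, adjusted p = 4.80e-05) and Cxcl16 (1.72 ± 0.30, adjusted p = 8.12e-04).

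Cxcl12 fell in implanted tumours in arterial-like (−1.03 ± 0.19, adjusted p = 0.00258), mature capillary-like (−0.96 ± 0.16, adjusted p = 0.00128, background 1.65%) and venous-like cells (−1.03 ± 0.22, adjusted p = 0.00704). In mature capillary-like cells it went from 4037 and 3460 CPM to 1636 and 2249 CPM. In immature capillary-like cells it was at 296 and 287 CPM after PBS and at 293 and 276 CPM after cGAMP (−0.03 ± 0.23, adjusted p = 0.930). This class joins clusters of opposite sign. Fitted singly, Cxcl12 stood at −0.59 in cluster 1 (adjusted p = 0.113) and at 0.58 in cluster 3 (adjusted p = 0.120), and neither was called. Cxcl1 fell in arterial-like cells (−1.57 ± 0.28, adjusted p = 0.00251), from 71.8 and 64.2 CPM to 24.02 and 20.5 CPM. No difference between the responses of the models was called by limma for any member in the 4 classes, the nearest being Ccl7 in venous-like cells (adjusted p = 0.0739). For this difference 0.117% of genes were called in arterial-like, 2.18% in immature capillary-like, 0.00946% in mature capillary-like and 0.896% in venous-like cells.

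Each class joins clusters whose shares differ between groups, so single clusters were fitted as well. Within cluster 0, Ccl2 was called in both models (3.51 and 4.16, background 6.95% and 18.6%), as was Cx3cl1 (1.72 and 2.34), and Cxcl16 (2.88, adjusted p = 0.00211), Cxcl12 (−1.005, adjusted p = 4.24e-04) and Cxcl1 (−1.06, adjusted p = 0.0308) were called in implanted tumours. Within cluster 3, Ccl2 was called in both models (4.02 and 4.15, background 7.43% and 17.5%). Cxcl16 (2.15, adjusted p = 6.29e-04) and Cx3cl1 (1.38, adjusted p = 0.0403) were called there in implanted tumours. Within cluster 1, Cx3cl1 was called in both (1.40 and 2.78, background 5.11% and 13.4%), whereas Ccl2 was not called in spontaneous tumours (1.54, adjusted p = 0.295) and was in implanted tumours (3.08, adjusted p = 0.00957). Ccl7 was also called there in implanted tumours (2.49, adjusted p = 0.0412). Some calls of the immature capillary-like class in implanted tumours were not kept in its single clusters. Ccl4 was not called in cluster 3 (2.17, adjusted p = 0.161) and did not pass the filter in cluster 1. Cxcl16 was not called in cluster 1 (0.70, adjusted p = 0.478). Within cluster 2, Ccl2 was called in both models (3.68 and 5.43, background 4.48% and 7.76%). Ccl7 (4.36, adjusted p = 0.00223) and Cxcl12 (−0.96, adjusted p = 0.0319) were called there in implanted tumours. For Ccl7 the limit given above for venous-like cells holds here too. In cluster 4, where 2.13% of genes were called in spontaneous and 1.41% in implanted tumours, Cxcl1 in implanted tumours was the only member called (−2.25, adjusted p = 0.0499). Cxcl12 in implanted tumours stood at −0.15 in this arterial-like cluster (adjusted p = 0.964).

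**Figure D5:**
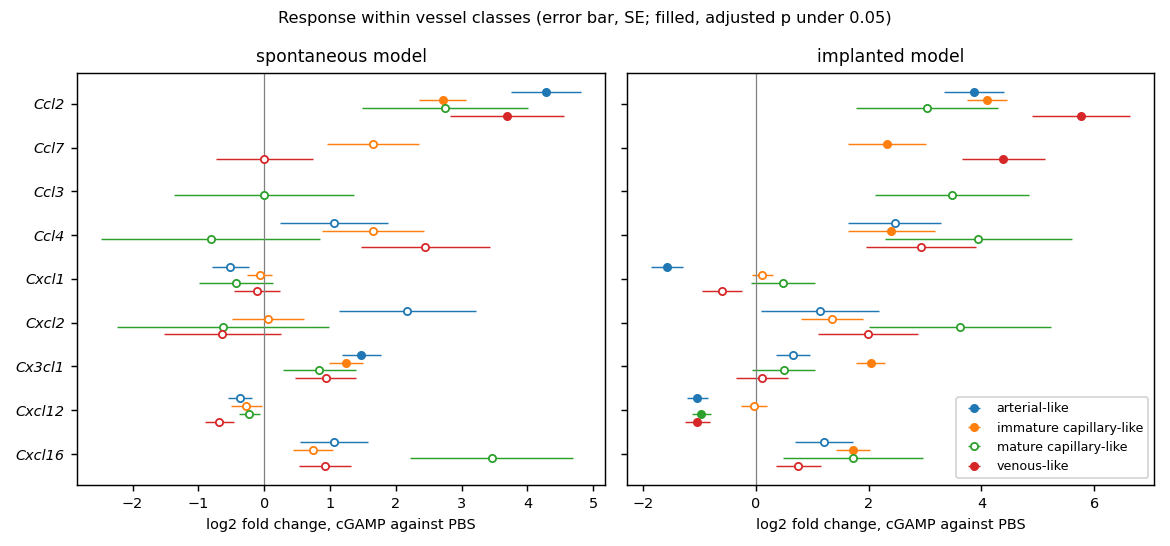
Log2 change of cGAMP against PBS (horizontal axis) for each chemokine within 4 vessel classes, in spontaneous and implanted tumours. Points are estimates over 2 libraries against 2, bars are SE, and filled points had an adjusted p under 0.05. Ccl2 was called in arterial-like, immature capillary-like and venous-like cells of both models, and Cxcl12 was called lower in 3 classes of implanted tumours but stood at −0.03 in immature capillary-like cells. That class joins cluster 1, at −0.59 for Cxcl12, and cluster 3, at 0.58, which are not drawn singly and were not called.

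The models were also compared with each other at equal treatment. After PBS none of the 8 chemokines tested was called by limma (adjusted p from 0.214 to 0.879), against 7.83% of all genes, of which 2527 had an unadjusted p under 0.05. After cGAMP, Ccl2 (1.38 ± 0.38, adjusted p = 0.0429) and Ccl4 (2.97 ± 0.86, adjusted p = 0.0493) were higher in implanted tumours, against 13.8% of genes called (5.23% higher). Both calls were close to the threshold. That of Ccl2 was kept in 12 of 22 alternatives and was 0.78 (adjusted p = 0.272) without replicate 2 and 1.99 without spontaneous cGAMP replicate 1. That of Ccl4 was kept in 11 of 21 and was 1.76 (adjusted p = 0.229) without replicate 1 and 4.18 without implanted cGAMP replicate 2. From lowest to highest mean, the groups ran spontaneous PBS, implanted PBS, spontaneous cGAMP and implanted cGAMP for Ccl2 and Cxcl16, and the PBS groups were not separated by the test (adjusted p = 0.879 for Ccl2 and 0.445 for Cxcl16), although the libraries of Cxcl16 did not overlap between them. For Cxcl12 the order ran implanted cGAMP, spontaneous cGAMP, spontaneous PBS and implanted tumours given PBS, and only the change within implanted tumours passed the test.

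Within classes the models differed in a few members before treatment. After PBS, Cxcl12 in mature capillary-like cells was higher in implanted tumours (4037 and 3460 CPM against 1604 and 1480 CPM), with a log2 difference of 1.28 ± 0.16 (adjusted p = 1.40e-04), while 0.624% of genes were called. Cxcl1 in arterial-like cells was higher by 1.23 (adjusted p = 0.0316, background 2.69%), and Cxcl16 in venous-like cells by 1.66 ± 0.40 (adjusted p = 0.0217, background 4.86%). After cGAMP, Ccl2 (1.81, adjusted p = 0.00300), Ccl4 (2.75, adjusted p = 0.0236) and Cxcl2 (2.03, adjusted p = 0.0200) were higher in immature capillary-like cells of implanted tumours, against 19% of genes. In venous-like cells Ccl7 (4.68, adjusted p = 0.00150), Cxcl2 (3.43, adjusted p = 0.0231) and Cxcl16 (1.501, adjusted p = 0.0246) were higher, against 11.4%. As said above, Ccl7 passed the filter in these cells only through implanted cGAMP, so its call adds no support. No member differed by the test in immature capillary-like cells after PBS, where 7.57% of genes were called, or in arterial-like and mature capillary-like cells after cGAMP, where 7.06% and 0.53% were.

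Of 27 other chemokines 9 were tested, and 4 rose in spontaneous and 6 in implanted tumours, against 5.09% and 8.6% of all genes called higher. None fell, and the median log2 changes were 1.11 and 2.17 against −0.10 over all genes in both models. The T cell attractant Ccl5 had changes of 9.87 and 9.29, and Cxcl10, a ligand of Cxcr3, had 4.79 and 2.17. Cxcl9, of the same family, had 5.81 and 1.48, and this difference between the models was called (−4.34, adjusted p = 0.0060). Of 19 chemokine receptors 5 were tested, of which 1 rose in spontaneous and 2 in implanted tumours, against the same shares of all genes. None fell, and the median changes were −0.06 and 0.47. Ccrl2, an atypical receptor that presents chemerin, rose by 1.52 (adjusted p = 0.00345) and 2.07 (adjusted p = 3.40e-04). The scavenging receptor Ackr2, singled out after its result was seen, was the other one called higher in implanted tumours, and it was also called higher there in the difference of responses and between the models after cGAMP. The atypical receptors Ackr1 and Ackr3 and the Cxcl12 receptor Cxcr4 were not called, at 0.31 and 0.47, −0.32 and 0.22, and −0.06 and 0.09.

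Of 15 genes that process or present chemokines 11 were tested. In spontaneous tumours 1 was higher and 1 lower, against 12.7% of all genes called in either direction. In implanted tumours 2 were higher and 3 lower, against 8.6% and 16.4% of all genes. The median changes were −0.10 and −0.23. The syndecan Sdc3, a heparan sulphate carrier, rose by 0.60 (adjusted p = 0.00603) and 0.94 (adjusted p = 2.80e-04). Of 17 inflammatory endothelial genes tested, 3 were higher and 1 lower in spontaneous tumours and 8 were higher in implanted tumours, with medians of 0.27 and 0.57, against 5.09% and 8.6% of all genes called higher. The 8 included Il1b and Tnf, named here after their results were seen, which myeloid cells make in quantity, in the libraries where 19.0% and 17.2% of cells had a core immune UMI, and the part of such cells was not tested. The leukocyte adhesion receptor Vcam1 rose in spontaneous tumours (1.19, adjusted p = 0.0136), and Nfkbia, which restrains NF-κB, rose in implanted tumours (0.31, adjusted p = 0.0198). Selp, the gene of the adhesion receptor P-selectin, was not called, at −0.78 (adjusted p = 0.0964) and −0.83 (adjusted p = 0.0547).

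The genes whose level over the 8 libraries was most like that of each chemokine were sought among the 8366 that averaged at least 10 CPM. For Ccl2 they were Zfand2a (Pearson r = 0.992) and Cd63 (0.986), for Cx3cl1 Psmc2 (0.973) and Nosip (0.969), for Cxcl16 Vmp1 (0.995) and Clptm1l (0.991), and for Cxcl12 Prickle1 (0.978) and Klhl4 (0.975). For Ccl4 they were Fcer1g (0.977), one of the core immune genes, and Dok1 (0.975), and for Cxcl2 Casp1 (0.979) and Cstb (0.961). For Ccl7 they were Fcf1 (0.966) and Serpina3n (0.962), and for Cxcl1 Eva1c (0.969) and Memo1 (0.934). These values describe 8 libraries that share treatment, depth and cell makeup, and they were the highest among all candidates.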

How the data were processed

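Reads were made with the 10x 3′ v3 kit from cells sorted as CD31+ and CD45-, from 2 mice per group per the methods. Per the labels and methods, the authors used Cell Ranger 3.0.0 (mm10) and Seurat 3.1.1 and deposited 1 table of natural log values per library, ln(1 + UMIs × 10000 / total). UMIs were worked back from the deposited values (100% whole within 0.01), and 0 columns were left unused. Groups came from the labels. Where nothing ties a library to 1 mouse, p-values measure only the spread between libraries. The 9 genes, the gene lists and the comparisons were chosen with earlier results of these data known.

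A level is the mean CPM over Pecam1-positive cells of a library, and 3′ UMI counts do not scale with transcript length. After adding a pseudocount of 1 and taking log2, a single limma 3.58.1 model (eBayes with trend, R 4.3.3) was fitted to the 8 libraries, keeping any gene that reached 5 CPM in 2 of them, with Benjamini-Hochberg adjustment and calls under 0.05. The plan named a count model only if raw counts were deposited. They were not, so limma was used, although UMIs could be worked back. The fit was tested on simulated data. Shares have 95% Wilson intervals, and intervals and the floor of 3 UMIs (0.184 to 0.403 CPM per library) cover counting error only. Cells were clustered with Seurat 5.3.0 (2500 variable features, 30 principal components, resolution 0.5) without the 9 genes and genes changed at least 2-fold by cGAMP. A cluster name needed 3 or more markers, each in 20% or more of its cells and raised by 0.5 or more on the log2 scale, and clusters with under 75% Pecam1-positive cells were set aside. Names are rebuilt and may differ from the study's. Scrublet marked 18 of 8204 cells (0.219%) as doublets, too few to have worked, so none were removed. All 9 genes were named in each comparison, up to 4 genes per list by mean CPM, and 2 like genes per chemokine. Alternatives were pseudocounts of 5 and 0.1, no filter, median-of-ratios scaling, summed UMIs, other cell sets, thinned cells, a replicate block and leaving out each library. Fits of single clusters and fits without cells with a core immune UMI were added after seeing the data.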

Additional observations from a re-analysis of the deposited data

Results flagged for a closer look

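Cells without a Pecam1 UMI, which the comparisons left out, carried several of the chemokines after cGAMP above the level in both PBS libraries of the same model. There were 50 to 496 such cells per library, and neither what they are nor these differences were tested. Ccl2 in them averaged 146 CPM in spontaneous cGAMP (144 and 148, against 0.663 and 76.7 after PBS) and 1204 CPM in implanted cGAMP (515 and 1894, against 30.1 and 51.2). Ccl7 averaged 28.9 CPM in spontaneous cGAMP (30.4 and 27.5, against 0 and 11.4) and 209 CPM in implanted cGAMP (68.7 and 349, against 0 and 0). Ccl4 averaged 137 CPM in implanted cGAMP (232 and 41.5, against 0 and 0). Cxcl1 averaged 95.9 CPM in spontaneous cGAMP (111 and 81.2, against 0.663 and 29.3) and 38.1 CPM in implanted cGAMP (21.7 and 54.6, against 18.3 and 5.15), where it ran opposite to the Pecam1-positive cells. Cxcl16 averaged 22.3 CPM in spontaneous cGAMP (32.9 and 11.8, against 3.31 and 3.86). No group had the 4 libraries needed to look for a library far from the others.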

How the results depend on the processing

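The number of the 9 chemokines called in spontaneous tumours (2) became 4 with UMIs summed per library, 5 in EC-like clusters, 5 with only the 4 libraries compared, 4 without implanted cGAMP replicate 1 and cells with a core immune UMI together, and 1 to 6 when single libraries were left out. In implanted tumours (7) it became 2 without a filter, 4 without cells with any immune marker UMI, 4 with cells thinned to 2000 UMIs, 4 with only the 4 libraries compared, 3 with the joint removal and 2 to 7 with single libraries left out. For the difference of the responses it was 0 to 1. For the models after PBS (0) it was 1 with the joint removal and 0 to 2 with single libraries left out. For the models after cGAMP (2) it was 1 with a pseudocount of 0.1, 0 without a filter, 1 with all deposited cells, 1 with cells of at least 2000 UMIs, 1 with only the 4 libraries compared, 0 with the joint removal and 0 to 6 with single libraries left out. Within classes, the spontaneous calls (5) became 3 without immune marker cells and the implanted calls (12) became 7, or 14 at clustering resolution 1. Without immune marker cells, only arterial-like and immature capillary-like cells could be fitted. The replicate numbers did not pair the libraries (correlations of deviations −0.22 to 0.13), and a fit with the replicate number as a block called 2, 6, 0, 0 and 2 members, losing Cxcl2 in implanted tumours (adjusted p = 0.0571). Median-of-ratios scaling moved the median change from −0.10 to −0.00 and −0.01, and the share of calls that were higher from 40.2% to 66.4% in spontaneous tumours, 34.3% to 51.5% in implanted tumours, 43.3% to 67.9% between models after PBS and 38.0% to 58.7% after cGAMP. Removing called doublets was not run. The counts of chemokines called stand without the share of all genes called in the same setting. They therefore do not show a change particular to the chemokines. The causes of these shifts were not tested.

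Signs reversed in these cases. In spontaneous tumours they were Ccl4 (−0.10) and Cxcl2 (−0.12) without immune marker cells and Cxcl1 with all deposited cells (0.032). For the difference of responses, Ccl7 was −0.74 with a pseudocount of 0.1, −0.11 with summed UMIs, −0.079 in EC-like clusters, −0.31 without spontaneous PBS replicate 2, −0.52 without implanted PBS replicate 2, −0.73 without implanted cGAMP replicate 1 and −0.55 with the joint removal. Cxcl1 was 0.030 with thinned cells and 0.049 without spontaneous PBS replicate 1, Cxcl2 −0.44 without implanted cGAMP replicate 1 and −0.20 with the joint removal, Cx3cl1 0.069 with summed UMIs and Cxcl16 −0.29 with thinned cells. Between models after PBS, Ccl2 was −0.11 with summed UMIs and −0.17 without spontaneous PBS replicate 1, where Cxcl1 was −0.0090. After cGAMP, Cxcl1 was −0.045 with summed UMIs, −0.25 with all deposited cells, −0.14 without spontaneous cGAMP replicate 2, −0.027 without core immune cells and −0.0099 with the joint removal, Cx3cl1 −0.016 without immune marker cells, −0.094 with thinned cells, −0.19 without spontaneous cGAMP replicate 2 and −0.015 with the joint removal, and Cxcl12 0.15 without implanted cGAMP replicate 1 and 0.17 with the joint removal. With single libraries left out, the other ends of these ranges were 1.47 (Ccl7), −0.57 (Cxcl1) and 1.4999 (Cxcl2) for the difference of responses, 0.42 (Ccl2) and 0.61 (Cxcl1) between models after PBS, and 0.21 (Cxcl1), 0.29 (Cx3cl1) and −0.69 (Cxcl12) after cGAMP. Within immature capillary-like cells, Cxcl1 was 0.012 without immune marker cells and 0.32 at resolution 1 in spontaneous tumours and −0.51 and −0.74 in implanted tumours, Cxcl2 was −0.73 at resolution 1 in spontaneous tumours, and Cxcl12 was 0.051 without core immune cells in implanted tumours. Of these only the −0.74 was called (adjusted p = 0.0418).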
